A study of Mus musculus with 2 samples.

Results

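The genes described are the 6 members of the Mir99/Mir100 and Mir125 microRNA (miRNA) families that lie in 3 genomic clusters of the mouse: Mir99a and Mir125b-2 on chromosome 16, Mir100 and Mir125b-1 on chromosome 9, and Mir99b and Mir125a on chromosome 17. They were chosen by symbol, through the Ensembl gene identifier of each row, and all 6 were found among the 1973 miRNA genes with a row in the tables. The samples were 2 libraries, biological replicates 1 and 2, both made from total RNA of healthy forebrain of the B6NCrl strain at embryonic day 16.5, with no mutant allele or agent labelled. Each was a pool of male and female embryos, and that of replicate 2 held 41 embryos by its label. Pooling hides the differences between embryos, and no second group was labelled. The data therefore give the level of each gene and how closely both libraries agreed.

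A miRNA is cut from a hairpin-shaped precursor into a short RNA of the 5′ arm (5p) or the 3′ arm (3p), and bases 2 to 8 of it, the seed, pair with target messenger RNAs. The Mir99/Mir100 family belongs to an ancient group that also holds Mir10, and the Mir125 family is the vertebrate counterpart of lin-4, the first miRNA described in the nematode Caenorhabditis elegans. In each cluster a Mir99-type gene, a let-7 gene and a Mir125 gene follow one another on the same strand. Members of Mir125 are known from other work to promote neuronal differentiation, and Mir99 and Mir100 are known regulators of the mTOR growth pathway.

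The mature sequences below show which genes share a seed and which cannot be told apart by their reads. They are those of RefSeq (GRCm38.p6, the assembly that mm10 names), written 5′ to 3′ with the seed in capitals.
miR-99a-5p: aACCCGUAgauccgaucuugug
miR-100-5p: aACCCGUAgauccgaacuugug
miR-99b-5p: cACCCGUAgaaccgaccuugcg
miR-125a-5p: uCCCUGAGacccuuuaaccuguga
miR-125b-5p, from both Mir125b-1 and Mir125b-2: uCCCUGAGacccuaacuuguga
The 5p arms carry 2 seeds in all, ACCCGUA in the 3 Mir99/Mir100 genes and CCCUGAG in the 3 Mir125 genes. Counted from 1 at the 5′ end and with the miR-99a base first, miR-99a-5p and miR-100-5p differ by the single substitution U16A, and miR-99a-5p and miR-99b-5p by A1C, U11A, U16C and U21C. The miR-125b-5p sequence is identical to miR-125a-5p over the first 13 bases only.

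The 3p arms are less alike, and are shown because they are the arms that distinguish Mir125b-1 from Mir125b-2.
miR-99a-3p: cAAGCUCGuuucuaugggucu
miR-99b-3p: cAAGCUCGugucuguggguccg
miR-100-3p: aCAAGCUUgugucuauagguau
miR-125a-3p: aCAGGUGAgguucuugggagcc
miR-125b-1-3p: aCGGGUUAggcucuugggagcu
miR-125b-2-3p: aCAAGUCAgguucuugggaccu
Only miR-99a-3p and miR-99b-3p share a 3p seed, AAGCUCG, among these 6 arms. The tables give 1 count per gene, so reads of the 5p and 3p arm were not separable.

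Precursors show how much of a gene a read could share with a relative. In the RefSeq hairpins below, capitals mark the longest stretch that occurs unbroken in any other annotated miRNA gene.
Mir99a, chromosome 16, 77598936 to 77599000, plus strand: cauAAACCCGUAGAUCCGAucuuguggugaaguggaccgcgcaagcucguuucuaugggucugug
Mir100, chromosome 9, 41531425 to 41531504, plus strand: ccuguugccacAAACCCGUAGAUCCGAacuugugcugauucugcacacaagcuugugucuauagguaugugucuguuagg
Mir125a, chromosome 17, 17830812 to 17830879, plus strand: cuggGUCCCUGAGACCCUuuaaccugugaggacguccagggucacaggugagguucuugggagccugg
Mir125b-1, chromosome 9, 41581926 to 41582002, plus strand: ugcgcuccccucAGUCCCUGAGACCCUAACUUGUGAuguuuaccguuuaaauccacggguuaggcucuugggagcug
Mir99a and Mir100 share 16 bases with each other, fewer than the 22 of either mature 5p form. Mir99b (chromosome 17, 17830188 to 17830257) shares at most 11 bases, with Mir100, and Mir125a at most 14, with Mir125b-1. Mir125b-1 and Mir125b-2 (chromosome 16, 77646273 to 77646343) share 24 bases, and the whole of miR-125b-5p lies inside that stretch. Reads with several possible places are counted in a row of their own and in no gene, and a read of the annotated miR-125b-5p matches both genes exactly. The counts of Mir125b-1 and Mir125b-2 are therefore uncertain as levels of miR-125b, while the other 4 genes have no such copy among the annotated miRNA genes.

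By the GENCODE M21 annotation, the 6 genes lie within longer genes on their own strand. Mir99a and Mir125b-2 lie in introns of the non-coding host Mir99ahg, and Mir125b-2 also overlaps an exon of the unclassified gene C130023A14Rik. Mir100 and Mir125b-1 lie in introns of the non-coding gene 3110039I08Rik, for which RefSeq uses the symbol Mir100hg, and Mir125b-1 also overlaps the single exon of Gm28119. Mir99b lies in an intron of the protein-coding gene Spaca6, which is named for the sperm acrosome, and Mir125a overlaps 1 exon among the Spaca6 transcripts. Mir125b-2 starts 47.3 kb after Mir99a and Mir125b-1 starts 50.5 kb after Mir100, whereas Mir125a starts 624 bases after Mir99b.

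Depth on the gene strand was 4158686 counts in replicate 2 and 5060112 in replicate 1, and reads that map to several loci made up 43.3% and 40.5% of all reads in those libraries. Of the 9 neural marker genes with a row (Mir9, Mir124a, Mir128, Mir137 and Mir92b genes), none was at 0. Their summed level was 22637 counts per 1000000 gene-strand counts (CPM) in replicate 2 and 23314 CPM in replicate 1. The largest part was Mir137, with 47645 counts in replicate 2 and 66989 in replicate 1, followed by the Mir128 genes and Mir92b. Mir124a-1 had only 15 and 25 counts, Mir124a-2 9 and 7, Mir124a-3 4 and 6, and Mir9-2 12 and 22, replicate 2 first. Reads that match several loci are not in these counts. Summed markers of other cell types were 18999 and 16611 CPM for endothelial Mir126a, 3889 and 3220 CPM for 7 epithelial genes, 492 and 768 CPM for 6 Hox cluster genes of the hindbrain and posterior body, 240 and 306 CPM for 3 erythroid genes, 222 and 167 CPM for 2 myeloid genes, 143 and 176 CPM for 2 liver genes and 25.7 and 19.4 CPM for 5 muscle genes, replicate 2 given first. Mir1a-1, Mir133a-1 and Mir133a-2 of the muscle list were at 0 in both libraries.

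The 6 genes together held 32.9% of the gene-strand counts in replicate 2 and 29.2% in replicate 1, a mean of 31.0% ± 2.56 (SD, n = 2). Exact Clopper-Pearson 95% intervals, which cover counting error only, ran between 32.8% and 32.9% in replicate 2, and between 29.2% and 29.3% in replicate 1. The libraries thus differed by far more than the counting error. Nearly all of this came from the Mir99/Mir100 family, with 31.9% of gene-strand counts in replicate 2 and 28.2% in replicate 1. The 3 Mir125 genes together held 0.975% in replicate 2 and 1.04% in replicate 1. Reads of miR-125b-5p that match both Mir125b genes are in neither count, so the Mir125 share leaves them out. These shares refer to uniquely placed reads: of all reads in the table, unplaced ones included, the 6 genes took 12.5% in replicate 2 and 10.9% in replicate 1.

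**Figure D1:**
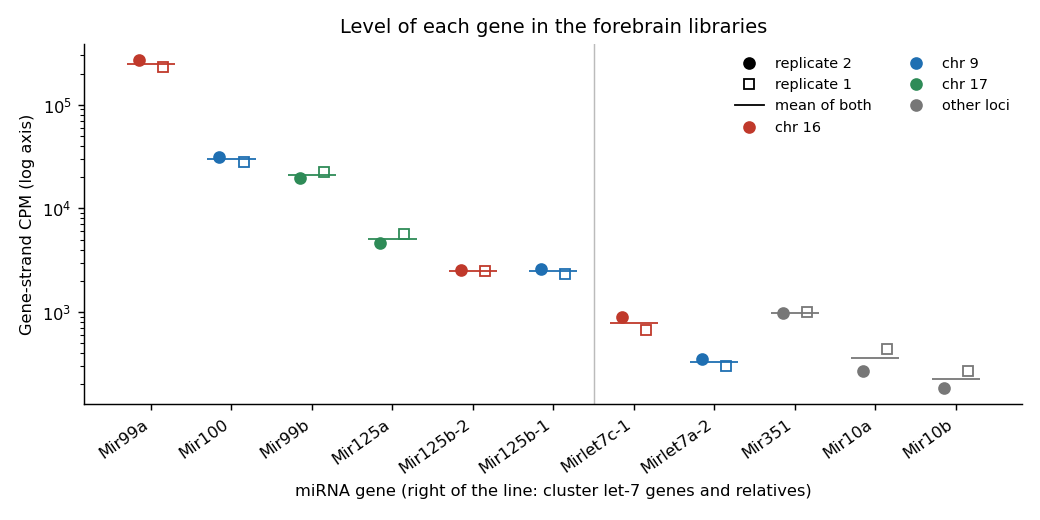
Gene-strand level in CPM (log axis) of the 6 genes, left of the grey line, and of cluster let-7 genes and relatives, right of it; filled circles are replicate 2, open squares replicate 1 and bars the mean of both. The levels run from Mir99a at a mean of 249634 CPM to Mir125b-2 at 2513 and Mir125b-1 at 2470 CPM, and both libraries give the first 4 genes in the same order.

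By uniquely placed reads, Mir99a was the most abundant gene of the whole table. Reads that match several loci, 43.3% of all reads in replicate 2 and 40.5% in replicate 1, are in no gene. This rank and those that follow leave them out, so genes with copies elsewhere can be ranked too low. It had 1113819 counts (267830 CPM) in replicate 2 and 1171107 counts (231439 CPM) in replicate 1. Replicate 2 was thus the higher library relative to its total, although its raw count was the lower. The next gene in rank, and the one whose levels in both libraries came closest, was Mirlet7g of the let-7 family, at 78051 CPM in replicate 2 and 78261 CPM in replicate 1. Mir99a stood apart from it by a distance of 2.37 in log2(CPM + 1) over the 2 libraries. Within its own family Mir99a took 84.0% of the reads in replicate 2 and 82.1% in replicate 1.

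Mir100, whose 5p form differs from that of Mir99a by a single base, ranked 5 of all genes, at a far lower level. It had 130905 counts (31477 CPM) in replicate 2 and 142342 counts (28130 CPM) in replicate 1. The ratio of Mir99a to Mir100 counts was 8.51 in replicate 2 (95% counting interval 8.46 to 8.56) and 8.23 in replicate 1 (8.18 to 8.27). Mir100 kept a nearly fixed part of the family, 9.87% in replicate 2 and 9.98% in replicate 1. The gene with the most similar levels over the 2 libraries was Mir17, a miRNA of proliferating progenitor cells, at a log2 distance of 0.26. Mir335, which lies in the imprinted host gene Mest, was directly above Mir100 in rank, and Mir17 directly below.

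Mir99b, which lies in an intron of Spaca6, ranked 10 of all genes. It had 81117 counts (19505 CPM) in replicate 2 and 113070 counts (22345 CPM) in replicate 1. Unlike Mir99a and Mir100, its level was lower in replicate 2. The ratio of Mir100 to Mir99b counts was 1.61 in replicate 2 (95% counting interval 1.60 to 1.63) and 1.26 in replicate 1 (1.25 to 1.27). A ratio of counts within a library does not depend on how libraries are scaled. The most similar gene was Mir149, at a log2 distance of 0.048, directly above Mir99b in rank, and Mir487b of the imprinted Dlk1-Dio3 region was directly below.

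Among the Mir125 genes, Mir125a was the most abundant by uniquely placed reads and ranked 35 of all genes. It had 19061 counts (4583 CPM) in replicate 2 and 28466 counts (5626 CPM) in replicate 1. It was, like its cluster partner Mir99b, lower in replicate 2. It held 47.0% of the Mir125 counts in replicate 2 and 53.9% in replicate 1. Its levels were closest to those of Mir127, a miRNA of the imprinted Dlk1-Dio3 region, at a log2 distance of 0.038. Mir744 was directly above it in rank and Mir127 directly below.

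Mir125b-1 and Mir125b-2, which encode the same miR-125b-5p, had almost equal counts. Mir125b-1 had 10797 counts (2596 CPM) in replicate 2 and 11858 counts (2343 CPM) in replicate 1, at rank 63. Mir125b-2 had 10669 counts (2565 CPM) in replicate 2 and 12453 counts (2461 CPM) in replicate 1, at rank 62. The ranges of these genes overlapped, and the gene with the higher count was not the same in both libraries. The ratio of Mir125b-2 to Mir125b-1 was 0.988 in replicate 2 (95% counting interval 0.962 to 1.02) and 1.05 in replicate 1 (1.02 to 1.08). The interval of replicate 2 includes equal counts, so that library gave no order beyond counting error. The most similar genes in the table were Mir92-1 for Mir125b-1, at a log2 distance of 0.16, and Mir1983 for Mir125b-2, at 0.14. In rank, Mir541 stood directly above the Mir125b genes and Mir1983 directly below them.

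The order of the 6 genes by CPM of uniquely placed reads was thus Mir99a, Mir100, Mir99b and Mir125a. Mir125b-2 and Mir125b-1 were last and not separable. The ranges of neighbouring genes did not overlap for the first 4 genes, nor between Mir125a and the Mir125b genes. The mature forms are between 21 and 24 bases long, so their lengths differ little, but the counts come from a ligated and amplified library and were not corrected for sequence preferences of those steps. A count of 0 would have allowed up to 0.721 CPM in replicate 2 and 0.593 CPM in replicate 1, far below the level of any of the 6 genes. On the opposite strand, 1 read at Mir99a in replicate 1 was the sum of all reads at these genes in both libraries.

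**Figure D2:**
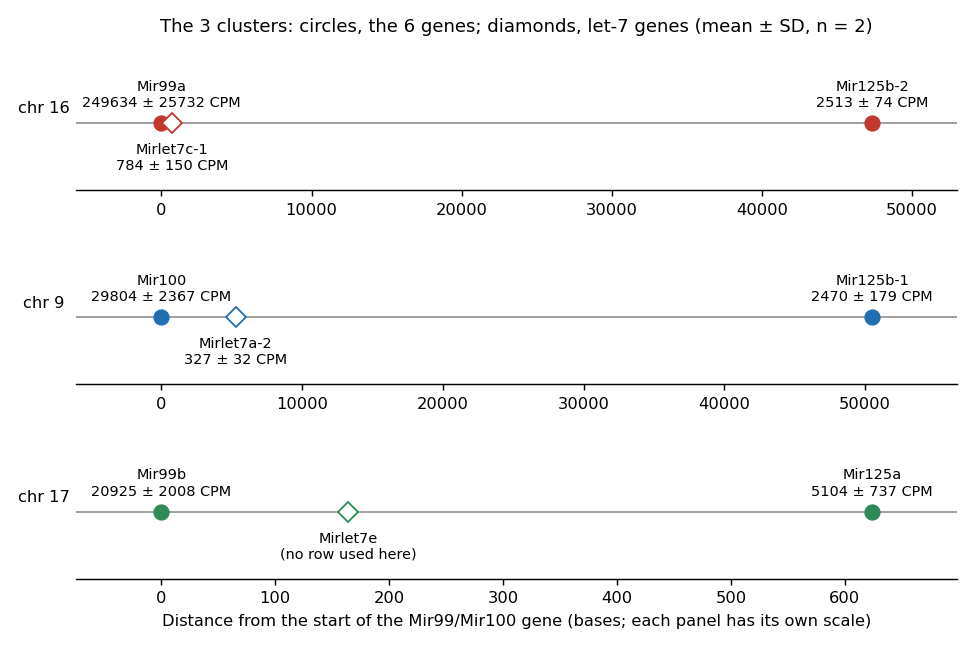
Map of the 3 clusters, with distance from the start of the Mir99/Mir100 gene in bases on the x axis (each panel has its own scale), circles for the 6 genes, diamonds for let-7 genes, and mean CPM ± SD of the 2 libraries. The Mir99/Mir100 gene carried more uniquely placed reads than its Mir125 partner in every cluster. Reads of miR-125b-5p that match both Mir125b genes are left out. The chromosome 17 cluster spans 624 bases between starts where the chromosome 16 and 9 clusters span 47.3 and 50.5 kb.

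In every cluster the Mir99/Mir100 gene exceeded its Mir125 partner in uniquely placed reads, but by very different factors. On chromosome 16, Mir99a had 104 counts for each count of Mir125b-2 in replicate 2 (95% counting interval 102 to 106) and 94.0 in replicate 1 (92.4 to 95.7). On chromosome 9, Mir100 had 12.1 counts for each count of Mir125b-1 in replicate 2 (11.9 to 12.4) and 12.004 in replicate 1 (11.8 to 12.2). On chromosome 17, Mir99b had 4.26 counts for each count of Mir125a in replicate 2 (4.19 to 4.32) and 3.97 in replicate 1 (3.92 to 4.02). Only the chromosome 9 ratio had overlapping counting intervals in both libraries. The ratios of the first and second of these clusters contain a Mir125b gene and share its uncertainty. Reads that match both Mir125b genes are in neither count, and leaving them out can only raise these ratios. Neither gene of the chromosome 17 pair shares a stretch as long as a mature miRNA.

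Let-7 genes belong to a family whose mature forms accumulate as tissues differentiate, and those of the chromosome 16 and chromosome 9 clusters had fewer uniquely placed reads than any of the 6 genes. Mirlet7c-1, which starts 721 bases after Mir99a, had 3699 counts (889 CPM) in replicate 2 and 3430 counts (678 CPM) in replicate 1, and let-7c-5p is also encoded by Mirlet7c-2. Mirlet7a-2, which starts 5.29 kb after Mir100, had 1452 counts (349 CPM) in replicate 2 and 1540 counts (304 CPM) in replicate 1. Another let-7a gene, Mirlet7a-1, has a row of its own, and reads that match several genes are counted in none. No row for Mirlet7e, which starts 164 bases after Mir99b, was used here. The row of Gm25927, a miRNA gene annotated over the same place on the minus strand, had 24709 reads on its opposite strand in replicate 2 and 28720 in replicate 1. That is the strand of Mirlet7e, and these reads come to 5942 CPM in replicate 2 and 5676 CPM in replicate 1.

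Seed relatives outside the clusters were rarer than any of the 6 genes. Mir351, a miRNA of an X-linked cluster whose 5p form (miR-351-5p: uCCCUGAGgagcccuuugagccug) carries the Mir125 seed, had 4086 counts (983 CPM) in replicate 2 and 5013 counts (991 CPM) in replicate 1. Mir6367 and Mir6394, which share that seed in RefSeq, had no count in either library. No other mature miRNA of the RefSeq table carries the Mir99/Mir100 seed. The Mir10 genes, relatives that lie in Hox clusters, have the seed ACCCUGU (miR-10a-5p: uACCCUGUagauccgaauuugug). Mir10a had 1129 counts (271 CPM) in replicate 2 and 2230 counts (441 CPM) in replicate 1, and Mir10b had 770 counts (185 CPM) in replicate 2 and 1373 counts (271 CPM) in replicate 1.

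The pools differed beyond counting noise in every one of the 6 genes. For these genes the 2 directions followed the clusters, but reads on the Mirlet7e strand of the chromosome 17 cluster went the other way. The exact binomial test, run over all 466 genes whose counts summed to 10 or more, with the TMM scaling of edgeR (trimmed mean of M values), called 6 of the 6 genes at an adjusted p under 0.05, 4 higher and 2 lower in replicate 2. It called 45.3% of all tested genes, 23.4% higher and 21.9% lower, and 92.1% of the 63 genes that reached 10000 counts in each library, the depth of these 6 genes. The count of 6 is therefore close to what that depth gave generally. The test compares 2 libraries and not conditions. It counts each read as an independent draw and leaves out the spread between pools.

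The chromosome 16 and chromosome 9 genes were higher in replicate 2. Mir99a had a log2 ratio of replicate 2 over replicate 1 of 0.35 (95% counting interval 0.35 to 0.36), with the exact test giving an adjusted p of 1e-300, the smallest value written. Mir100 had a log2 ratio of 0.31 (0.30 to 0.32), Mir125b-1 of 0.29 (0.25 to 0.33) and Mir125b-2 of 0.20 (0.17 to 0.24), with adjusted p of 1e-300, 5.90e-51 and 6.95e-26 by the same exact test. The let-7 genes of these clusters were higher too, Mirlet7c-1 by 0.54 and Mirlet7a-2 by 0.34.

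Both chromosome 17 genes were lower in replicate 2. Mir125a had a log2 ratio of -0.15 (95% counting interval -0.18 to -0.13), called by the exact binomial test (adjusted p 1.50e-28). Mir99b had a log2 ratio of -0.05 (-0.07 to -0.04), also called by the exact test (adjusted p 2.05e-14). The opposite-strand reads at Gm25927, which lies between these 2 genes, were not part of the test. Unlike both genes, these reads were higher in replicate 2, with a log2 ratio of 0.21 on the same scale. As a pair, Mir99b and Mir125a took 2.41% of gene-strand counts in replicate 2 and 2.80% in replicate 1, while Mir100 and Mir125b-1 held 3.41% in replicate 2 and 3.05% in replicate 1.

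**Figure D3:**
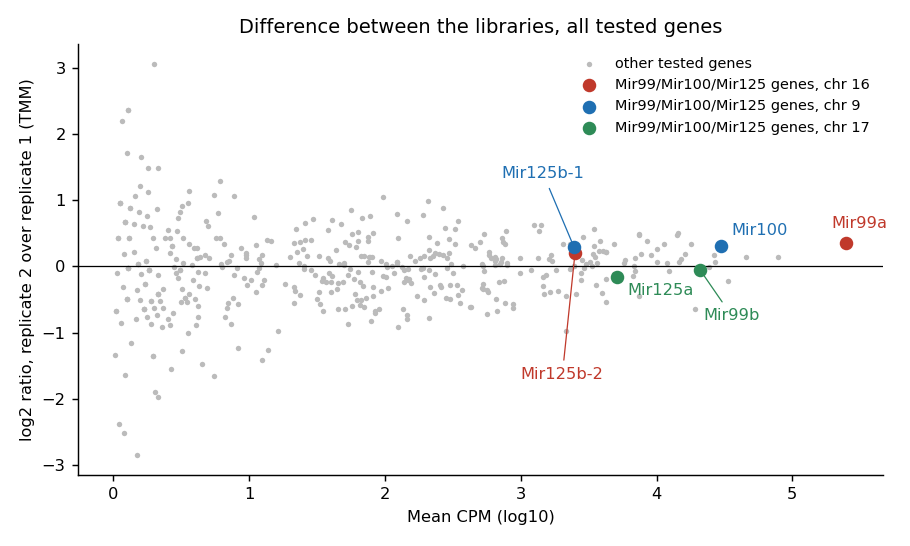
Log2 ratio of replicate 2 over replicate 1 after TMM scaling against mean CPM (log10) for the 466 tested genes; grey points are other genes and coloured points the 6 genes, by chromosome. Mir99a lies farthest right at 0.35, the other chromosome 16 and 9 genes lie above the zero line, and both chromosome 17 genes lie below it.

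In size, 4 of the 6 differences exceeded the median of genes of like depth, and every one of the 6 was exceeded by other genes of that depth. Among the 63 genes that reached 10000 counts in each library, the median absolute log2 ratio was 0.19, and 12 genes (19.0%) had a larger one than Mir99a. For Mir100 the figure was 17 genes, for Mir125b-1 19, for Mir125b-2 28, for Mir125a 36 and for Mir99b 54. Among the 273 genes that reached 100 counts in each library, the median was 0.24 and 98 genes (35.9%) exceeded Mir99a. The median log2 ratio of the 6 genes was 0.25, beside 0.01 for all tested genes and 0.11 for the 63 deep genes. The relatives outside the clusters differed as well, with log2 ratios of 0.13 for Mir351, -0.55 for Mir10a and -0.41 for Mir10b. By the summed levels given above, endothelial, epithelial, myeloid and muscle markers were higher in replicate 2. Neural, Hox cluster, erythroid and liver markers were lower, and the Hox list includes Mir10a and Mir10b. Calls within a list were split for epithelial (6 higher, 1 lower), neural (3 higher, 1 lower) and erythroid genes (1 higher, 1 lower). The part of these markers in the differences of the 6 genes was not tested.

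The directions of the 6 genes were the same under each scaling tried, but their sizes were not. Leaving out TMM and using unscaled library totals moved every log2 ratio by -0.14 and, over all tested genes, turned 109 calls higher and 102 lower into 67 higher and 155 lower. On unscaled totals Mir99a had a log2 ratio of 0.21, Mir100 of 0.16, Mir125b-1 of 0.15 and Mir125b-2 of 0.06, while Mir99b had -0.20 and Mir125a -0.30. The chromosome 17 pair thus differed more, and the others less, on unscaled totals.

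**Figure D4:**
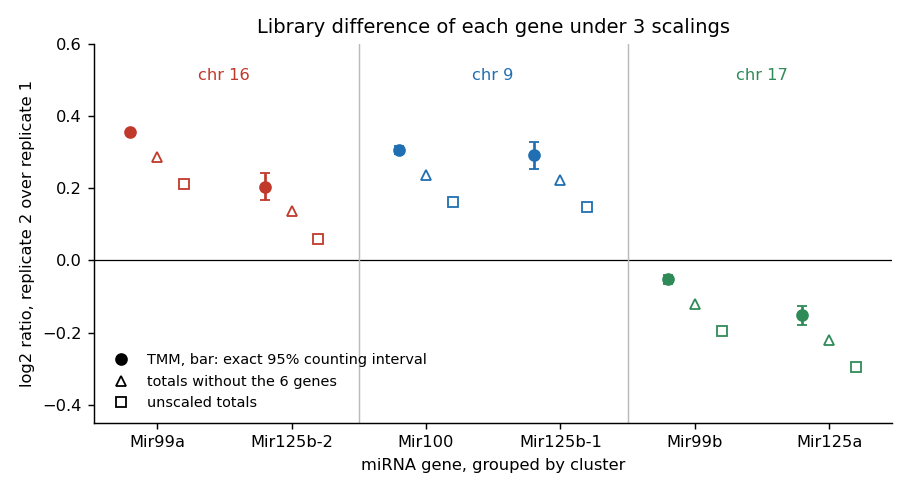
Log2 ratio of replicate 2 over replicate 1 for each of the 6 genes, grouped by cluster, under TMM (filled circles, with exact 95% counting intervals), with library totals that leave out the 6 genes (triangles) and with unscaled totals (squares). Chromosome 16 and 9 genes stay above zero and chromosome 17 genes below it under all 3 scalings.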

How the data were processed

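Small RNA of mouse forebrain was sequenced in 2 libraries. The authors deposited raw read counts per gene, without regard to strand and for each strand, on the mm10 assembly with GENCODE M4, per the file headers and descriptions. The aligner, the counter and any trimming were not given in the sources used here. Of these tables, the 4 rows of unassigned reads stayed out of totals: they held 43.3% of all reads as multimapping, 15.2% as unmapped and 2.82% outside genes in replicate 2, and 40.5%, 19.1% and 2.50% in replicate 1.

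Gene-strand counts were used. Symbols came from GENCODE M21 by identifier (1894 of 1973 genes matched). Values are mean ± SD of both replicates. The labels name separate pools, and the test below measures counting error only. It was an exact binomial test, two-sided, of both counts given their sum, after TMM scaling over the tested genes (edgeR 4.0.16, R 4.3.3), Benjamini-Hochberg adjusted over all genes whose counts summed to 10 or more, at a threshold of 0.05. Log2 ratios used a pseudocount of 0.5. edgeR's quasi-likelihood test needs replicates within groups. The test was also run on simulated counts that held counting error only, without TMM scaling. That run therefore cannot show how the test behaves under spread between pools. Intervals are exact Clopper-Pearson (SciPy 1.17.1) and cover counting error only: the labels describe no molecular identifiers.

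Named genes are the 6 members, same-strand genes within 100 kb, cluster let-7 genes, seed relatives, and for each member the gene nearest in log2(CPM + 1) and its neighbours in rank. Members and lists were chosen with earlier results of these data known. All 6 members matched RefSeq for mature sequences and 4 for the hairpin.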

Additional observations from a re-analysis of the deposited data

Results flagged for a closer look

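Reads outside the gene-strand counts appeared at the chromosome 17 cluster. The row of Gm25927 (chromosome 17, 17830343 to 17830459, minus strand), between Mir99b and Mir125a, had 24709 reads on its opposite strand in replicate 2, against 28720 in replicate 1, while its gene-strand count was 0 in both libraries. The limit that a count of 0 allows is 3 reads. The mean level was 5809 ± 188 CPM (SD, n = 2) relative to the gene-strand total, and these reads were left out of the test of all genes and of the gene-strand totals.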

How the results depend on the processing

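Calls for all 6 genes, and their directions, were the same with unscaled totals, DESeq2 size factors (DESeq2 1.42.0), totals without the 6 genes, no filter, a summed count of at least 100, unstranded counts and a pseudocount of 1. Over these settings the log2 ratio ranged from 0.21 to 0.36 for Mir99a, 0.16 to 0.31 for Mir100, 0.15 to 0.30 for Mir125b-1, 0.06 to 0.21 for Mir125b-2, -0.20 to -0.04 for Mir99b and -0.30 to -0.14 for Mir125a, and the largest adjusted p of the exact binomial test was 0.00424, for Mir125b-2. The number of genes called lay between 203 and 225. The pseudocount does not enter the exact test, so no call could change with it. The filter settings kept the same TMM scaling, so they could alter only the adjustment of p. The share held by the 6 genes was 30.5% with unstranded counts, and 32.9% and 29.2% without replicate 1 and without replicate 2. With all reads as denominator it was 11.7%, since unplaced reads are then counted. Leaving out Mir99a from the total raised the mean CPM to 39797 for Mir100, 27857 for Mir99b and 6790 for Mir125a. No paired analysis was possible because both libraries belong to one group. Depth did not limit these genes, but 2 pools give no firm estimate of the spread between pools, and miR-125b reads that match both of its genes are not in the counts.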
